A study of Mus musculus with 4 samples.

Results

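Imprinted genes are expressed mainly from the copy inherited from 1 parent, and 34 of them were followed through differentiation and Smarca4 knockdown in female mouse embryonic stem cells (mESCs). They were chosen by name, as a list of known imprinted genes, when earlier results of these data were known. They were then looked up in the gene table of the study. Of the 34 genes, 31 were found among 25965 rows. Rian, Mirg and Kcnq1ot1, which are non-coding RNAs, were not found under these names and were not analysed here. By textbook assignment, 19 of the genes found are paternally expressed and 9 maternally expressed, and for 3 (Grb10, Ddc and Gnas) the expressed allele depends on the tissue or isoform. They lie in 16 clusters or single sites.

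The study asked what Smarca4, the ATPase of the nucleosome-remodelling BAF complex, contributes to differentiating female cells in which 1 X chromosome is being silenced. RNA-seq libraries came from female mESC lines of an F1 cross with FVB/NJ mothers and CAST/EiJ fathers. One library was made at day 0, from cells expanded in 2i medium, which holds mESCs in a naive state, and carries the label of a nonsilencing control although it precedes transduction. The other 3 were harvested at day 6 of differentiation, after weaning into DME HiHi, a serum medium without 2i. These cells had received a retroviral short hairpin on day 2 and puromycin selection on day 3. The hairpin was nonsilencing (Nons) in the control and targeted Smarca4 in the other libraries (Smarca4.4 and Smarca4.6). Groups followed the sample titles, because the genotype label names Smarcc as the knocked-down gene in all 3 day 6 libraries, the Nons one among them. Day 6 and day 0 therefore differ in differentiation, transduction and selection together, and these cannot be told apart. The labels do not say whether the libraries came from 1 cell line or several.

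Imprinted clusters are governed by control regions whose DNA is methylated on the maternal or the paternal copy, a mark laid down in the egg or sperm. After fertilisation the mark is kept by a zinc-finger protein, ZFP57, with its partner TRIM28, which recruit repressive enzymes, and by the maintenance methyltransferase DNMT1. Many imprinted genes regulate growth of the embryo and placenta, with IGF2 and its clearance receptor IGF2R as the classical pair. The values here combined both alleles. The maternal FVB and paternal CAST copies were not separated, and no level below says which copy was read.

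The Snrpn cluster on chromosome 7 held Peg12 and Magel2, the compared members that were at least 2-fold different with a hairpin, and the letters before the starts of these and their 2 near neighbours are shown for that reason. Snrpn, at the far end of the cluster, has 4 annotated windows with 2 to 4 CG dinucleotides each and is not printed. Each line gives the 250 bases upstream of the annotated start of transcription, 5′ to 3′ on the strand of the gene, from RefSeq on GRCm38.p6, with CG dinucleotides, the sites of DNA methylation, in capitals. Peg12 is the window chr7:62464511-62464760 on the minus strand, Mkrn3 is chr7:62420154-62420403 on the minus strand, Magel2 is chr7:62376729-62376978 on the plus strand, and Ndn is chr7:62348027-62348276 on the plus strand.
Peg12: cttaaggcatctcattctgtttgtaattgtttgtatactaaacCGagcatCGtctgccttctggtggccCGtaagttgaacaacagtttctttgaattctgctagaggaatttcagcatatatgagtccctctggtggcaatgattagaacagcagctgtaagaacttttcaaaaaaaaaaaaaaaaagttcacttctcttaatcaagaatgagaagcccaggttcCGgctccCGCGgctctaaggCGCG
Mkrn3: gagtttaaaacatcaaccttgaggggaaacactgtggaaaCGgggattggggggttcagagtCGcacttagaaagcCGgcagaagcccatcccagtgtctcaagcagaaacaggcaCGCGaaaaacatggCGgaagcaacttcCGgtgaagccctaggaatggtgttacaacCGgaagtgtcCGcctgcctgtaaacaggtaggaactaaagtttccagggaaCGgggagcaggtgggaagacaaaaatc
Magel2: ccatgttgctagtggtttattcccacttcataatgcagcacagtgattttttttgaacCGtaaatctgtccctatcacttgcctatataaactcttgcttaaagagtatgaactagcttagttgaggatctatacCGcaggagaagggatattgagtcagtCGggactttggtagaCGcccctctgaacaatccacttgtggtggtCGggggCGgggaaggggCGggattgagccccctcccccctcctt
Ndn: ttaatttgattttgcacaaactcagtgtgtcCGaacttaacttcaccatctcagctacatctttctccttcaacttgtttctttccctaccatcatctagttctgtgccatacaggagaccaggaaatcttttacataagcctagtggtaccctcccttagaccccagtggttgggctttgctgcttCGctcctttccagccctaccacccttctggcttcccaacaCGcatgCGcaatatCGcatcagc

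These windows held 8 CG dinucleotides before Peg12, 10 before Mkrn3, 7 before Magel2 and 5 before Ndn, against a median of 6 over 32851 promoter windows. Their GC content was 42%, 52%, 48.8% and 47.2% in the same order. Next, 2 motifs read by proteins that act at imprinted regions were searched on both strands. TGCCGC, the core bound by ZFP57 when methylated, was in none of the 4 windows and in 8.68% of all windows. GCCATNTT, the core bound by YY1, was in the Mkrn3 window alone of the 4 and in 3.91% of all windows. A match or its absence describes these letters only, and methylation was not measured in these data.

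The hairpin guides show where each knockdown acted on the Smarca4 transcript, in lower case as 22-base antisense sequences, 5′ to 3′, with coordinates on GRCm38. Bases 1 to 21 of Smarca4.4 matched exon 34 at chr9:21703328-21703348, in the 3′ untranslated region, in 3 of 4 annotated Smarca4 transcripts. Smarca4.6 matched exon 22 at chr9:21670505-21670525, in coding sequence, in 4 of 4. No transcript of another gene, imprinted or not, held a full match to any of the 3 guides.
Smarca4.4: tttattactgtctgactccagt
Smarca4.6: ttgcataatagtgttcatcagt
Nons: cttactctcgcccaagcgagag

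The deposited values are log2 CPM, that is reads scaled to the total of the library, and whole reads could be read back from them. The totals were 18599402 reads at day 0 and 36495582 to 47143727 at day 6, so the day 0 library was the shallowest. A level of 3 reads, taken as the floor, was 0.161 CPM at day 0 and 0.0636 to 0.0822 CPM at day 6. Smarca4 itself stood at 7.93 log2 CPM at day 0, 7.84 in Nons, 7.04 with Smarca4.4 and 7.44 with Smarca4.6, which is 57.3% and 75.8% of Nons in CPM. Each group was 1 library, so there is no replicate check and no test. The 95% intervals given are exact counting intervals, which compare 2 libraries and not 2 conditions.

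Cell identity moved with time and, less, with the hairpins, and its part in the results was not tested. The summed level of 7 pluripotency genes was 3358 CPM at day 0 and 820 to 1096 CPM at day 6, all 7 having reads throughout. Among them Nanog stood at 9.96 log2 CPM at day 0 and 5.92, 5.56 and 5.53 at day 6 in Nons, Smarca4.4 and Smarca4.6, whereas Pou5f1 stood at 9.50, then 9.84, 9.45 and 9.94. The day 6 libraries thus kept transcripts of an mESC-defining gene. The 8 mesenchyme and smooth muscle genes summed to 8.76 CPM at day 0, with Acta2 and Col3a1 at 0 reads, and to 1093 CPM in Nons, 816 with Smarca4.4 and 698 with Smarca4.6, with all 8 at 3 reads or more. For trophoblast, 9 genes summed to 101 CPM at day 0 and 76.4, 102 and 83.1 CPM at day 6, a sum in which Tfap2c went from 6.42 to 4.02 log2 CPM in Nons. Of the 6 trophoblast genes that passed the filter described below, 5 were above day 0 in Nons and 4 by at least 2-fold, with a median of 2.80. Of all 13264 genes that passed, 6822 were above day 0 in Nons, and 19.6% of all were so by at least 2-fold. Ascl2, 1 of the 6, is also an imprinted gene of the list. Plac1 and Tpbpa were at 0 reads at day 0. For primitive endoderm, 8 genes summed to 11.2, 29.2, 36.2 and 37.0 CPM over the 4 libraries. That sum followed Dab2, 3.59 higher in Nons than at day 0. The 5 genes that passed the filter were all above day 0 in Nons, with a median of 0.66. All 5 were also above Nons with Smarca4.4 and with Smarca4.6, with medians of 0.41 and 0.73. Of all genes compared, 56.5% and 58.9% were above Nons. Gata6, Sox7 and Afp, under the filter, differed in Nons from day 0 by -2.54, -2.30 and -2.88, Afp on 3 reads and 1. With the 2 hairpins, Gata6 differed from Nons by 0.79 and -0.78 and Sox7 by 1.42 and 1.05. The 4 neural genes summed to 169, 445, 441 and 481 CPM. The neural sum followed Nes, 3.12 higher in Nons than at day 0, whereas Pax6, Tubb3 and Sox1 differed by -0.85, -0.94 and -2.04. With Smarca4.4 and Smarca4.6, Nes differed from Nons by -0.12 and 0.00, Pax6 by 0.62 and 0.60 and Tubb3 by 0.43 and 0.61. Sox1, under the filter, had 15 reads at day 0, 9 in Nons, 140 with Smarca4.4 and 30 with Smarca4.6. In RNA from whole cultures, fewer cells of a type and less RNA per cell cannot be told apart.

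**Figure D1:**
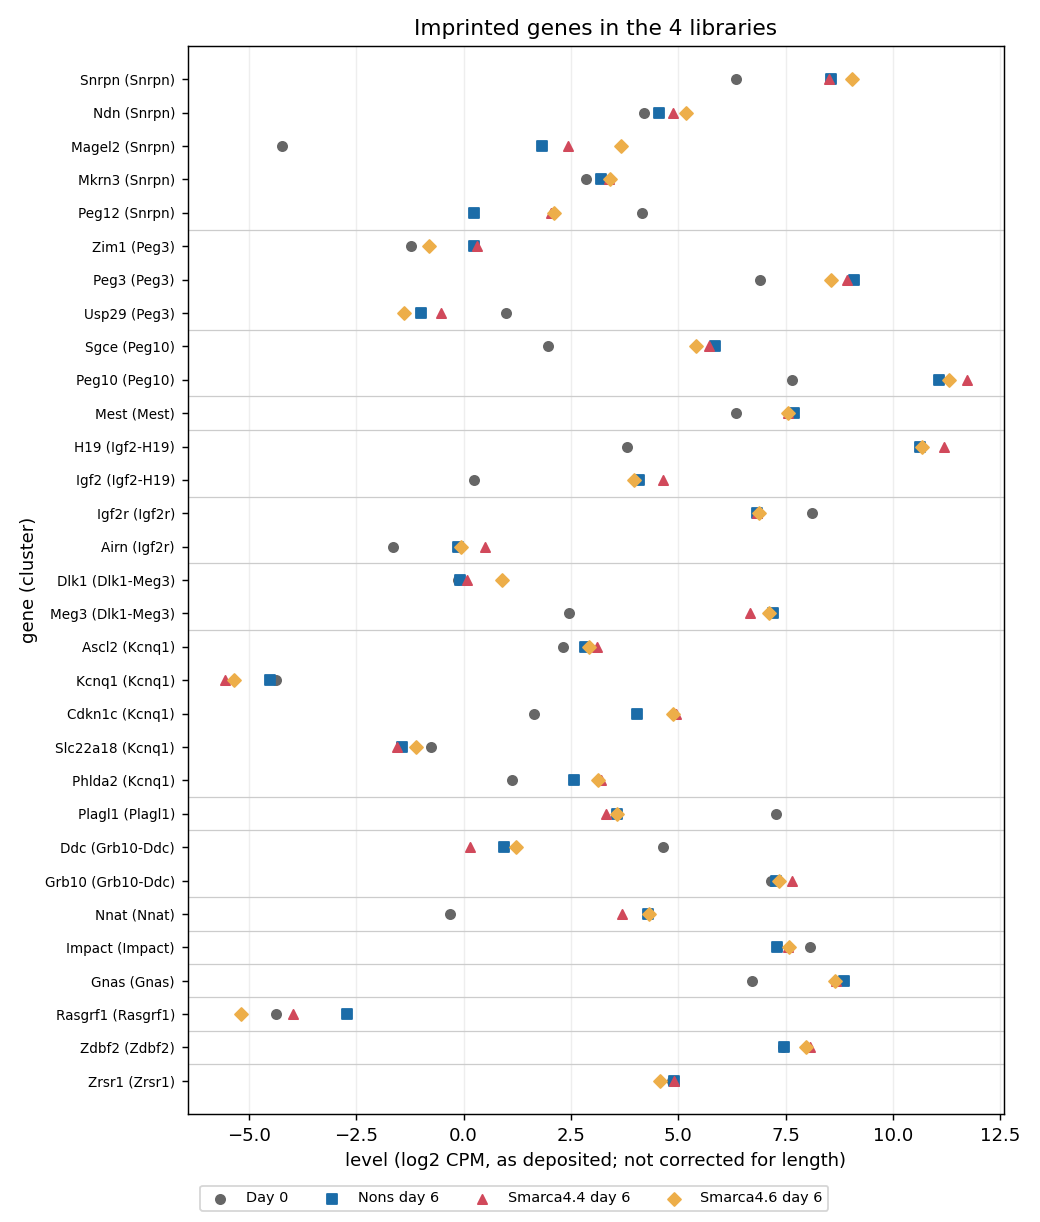
Level of each of the 31 imprinted genes found, in log2 CPM (x axis, not corrected for gene length), by gene and cluster (y axis), with 1 point per library: day 0 circles, Nons squares, Smarca4.4 triangles and Smarca4.6 diamonds. For H19, Meg3, Peg10 and Nnat the day 0 point lies far left of the 3 day 6 points, while Plagl1, Ddc and Igf2r show the opposite order.

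The imprinted genes took a larger part of the library at day 6 than at day 0. The 31 genes summed to 1739 CPM at day 0, 6293 in Nons, 8244 with Smarca4.4 and 6760 with Smarca4.6. H19 and Peg10 alone made up 12.3% of that sum at day 0 and 59.4%, 69.0% and 61.7% at day 6. Per kilobase of annotated exon, the highest members in Nons were H19 at 649 CPM per kb, Peg10 at 321, Snrpn at 174 and Mest at 52.9. At day 0 the order was different, with Impact at 59.4 CPM per kb, then Snrpn at 37.9, Peg10 at 30.03, Igf2r at 29.6 and Plagl1 at 21.2. Peg10 and Igf2r lay close together there, and the spread between replicates that would separate such neighbours is not known.

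From day 0 to Nons at day 6, more imprinted genes were higher than lower. Genes were compared where the mean over the 4 libraries was at least 0 log2 CPM. This filter passed 25 of the 31 members and 13264 genes in all. As 3 of the 4 libraries are from day 6, it leans towards genes high at day 6. Of the 25, 13 were at least 2-fold higher in Nons, against 19.6% of all genes compared. At least 2-fold lower were 4, against 12.3%. With no filter, 16 of the 31 were higher and 5 lower by as much, beside 17.4% and 11.4% of all genes. The median difference was 1.37 on the log2 scale over the 25 and 0.03 over all genes compared. In every one of the 3 day 6 libraries, 13 members were at least 2-fold above day 0, against 16.6% of all genes compared. At least 2-fold below in every one were 4, against 9.01%. The 3 comparisons share the 1 day 0 library, so a low or high value there enters all of them. The 16 paternally expressed members that passed had a median difference of 0.86 and the 6 maternally expressed ones 1.92. That gap depended on the filter. Over all members found, the medians were 1.37 for the 19 paternally and 1.44 for the 9 maternally expressed ones.

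**Figure D2:**
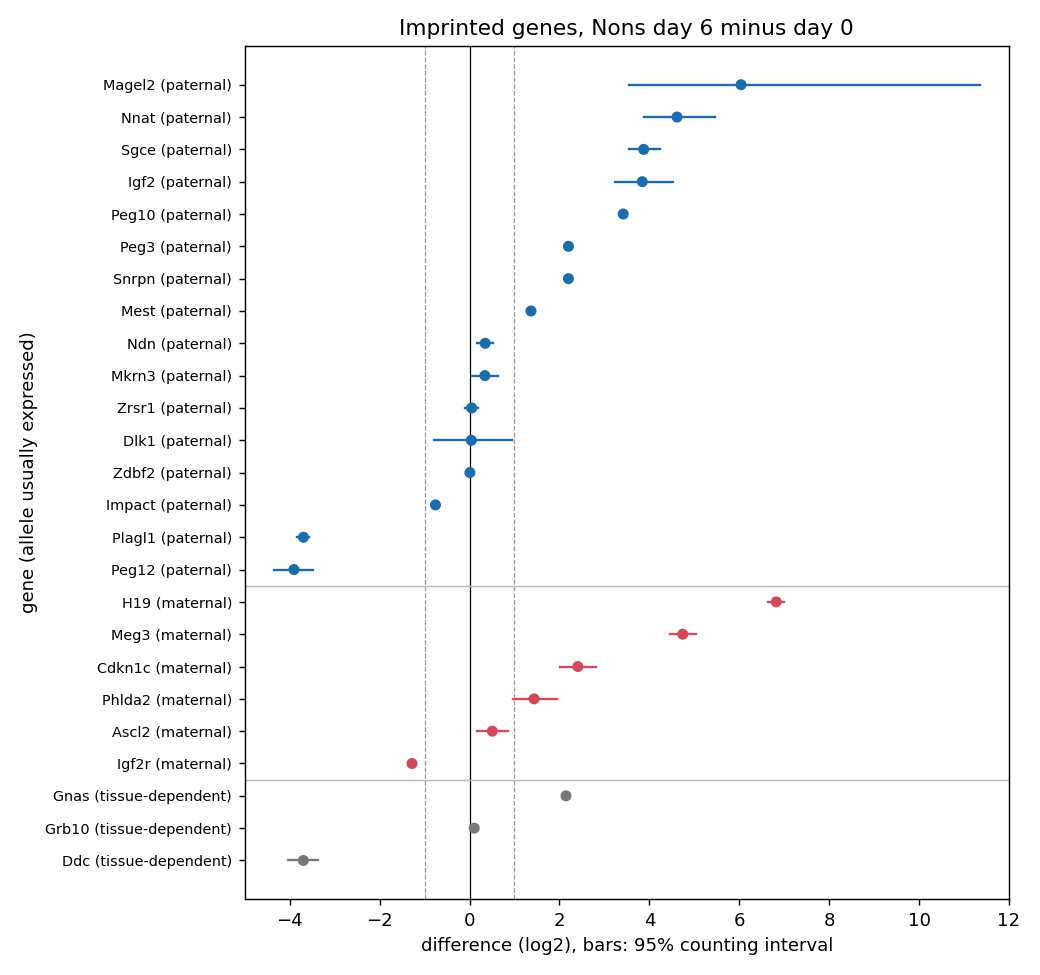
Difference between Nons at day 6 and day 0 on the log2 scale (x axis) for each of the 25 imprinted genes compared (y axis, grouped by usual allele of expression), with bars for the exact 95% counting interval of the 2 libraries and dashed lines at 2-fold. H19 at 6.82 and Magel2 at 6.04 are farthest to the right, the latter with the widest interval, and Peg12 at -3.91 is farthest to the left.

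The growth-control pair at the Igf2-H19 cluster was among the most changed. H19, a maternally expressed non-coding RNA that carries a microRNA, was read 262 times at day 0 and 73006, 109526 and 59941 times at day 6 in Nons, Smarca4.4 and Smarca4.6. Its level went from 3.82 to 10.64 log2 CPM in Nons, a difference of 6.82 (95% interval 6.65 to 7.004) or 113-fold. Igf2, the paternally expressed growth factor next to it, was read 22 times at day 0 and 777, 1178 and 570 times at day 6. The difference was 3.84 (3.23 to 4.53). Both genes were thus higher in every day 6 library, although by textbook assignment they are read from opposite copies.

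Igf2r, the maternally expressed receptor that clears IGF2, went the other way. It stood at 8.10 log2 CPM at day 0 and 6.82, 6.84 and 6.87 at day 6, a difference of -1.28 (-1.34 to -1.22) in Nons. Airn, the paternal non-coding RNA that runs antisense through Igf2r and silences it in cis, had 6 reads at day 0 and 42, 67 and 35 at day 6. The difference for Airn was 1.51, with an interval of 0.27 to 3.03, and its mean level kept it under the filter. The 2 genes overlap on opposite strands over 28354 bases and the strand setting of the counts was not stated, so reads of one may have been given to the other.

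In the Dlk1-Meg3 cluster the genes found had unlike values. Meg3, its maternal non-coding RNA, was read 102 times at day 0 and 6720, 4790 and 5089 times at day 6, a difference of 4.74 (4.46 to 5.04) in Nons. Dlk1, the paternally expressed transmembrane protein of the same cluster, stayed near the limit of the filter, with 17 reads at day 0 and 43, 50 and 68 at day 6. Its difference was 0.04 (-0.80 to 0.94), so the interval spans both directions.

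Peg10, a retrotransposon-derived gene needed for the placenta, stood at 7.65 log2 CPM at day 0 and 11.06, 11.71 and 11.30 at day 6, a difference of 3.42 (3.37 to 3.47) in Nons. Sgce, the epsilon-sarcoglycan gene that starts beside Peg10 on the other strand, had 73 reads at day 0 and 2633, 2484 and 1558 at day 6, a difference of 3.87 (3.54 to 4.23). This pair of neighbours, both paternally expressed, was higher at day 6, Sgce by more than Peg10, with counting intervals that did not overlap. Nnat, a membrane proteolipid gene of developing brain, had 15 reads at day 0 and 905, 608 and 733 at day 6, a difference of 4.62 (3.89 to 5.46). Nnat lies wholly within Blcap on the opposite strand, and Blcap stood at 4.28 log2 CPM at day 0 and 4.42, 4.30 and 4.10 at day 6.

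In the Snrpn cluster the members moved apart between day 0 and day 6. Snrpn, which encodes a splicing protein of neurons, stood at 6.36 log2 CPM at day 0 and 8.56, 8.50 and 9.04 at day 6, a difference of 2.20 (2.12 to 2.28) in Nons. Magel2, a MAGE-family regulator of ubiquitin ligases, was read once at day 0, under the floor, and 162, 255 and 466 times at day 6. The ratio for Nons was 65.8, with a log2 interval of 3.54 to 11.35. Ndn and Mkrn3 differed by 0.35 (0.17 to 0.53) and 0.34 (0.06 to 0.63), less than 2-fold. Peg12, a FRAT-family gene whose relatives bind GSK3 in Wnt signalling, was read 329 times at day 0 and 54, 194 and 157 times at day 6. In log2 CPM that was 4.14 at day 0 and 0.24, 2.04 and 2.10 at day 6, and the difference in Nons was -3.91 (-4.35 to -3.49), a level 14.99-fold lower. Peg12 was thus lower in every day 6 library, while its 4 neighbours in the cluster were at or above their day 0 level.

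Plagl1 and Ddc were the other members with large negative differences. Plagl1, a zinc-finger transcription factor that restrains growth, stood at 7.27 log2 CPM at day 0 and 3.57, 3.32 and 3.58 at day 6, a difference of -3.70 (-3.83 to -3.56). Ddc, the decarboxylase that makes dopamine and serotonin, had 464 reads at day 0 and 88, 52 and 85 at day 6, a difference of -3.70 (-4.04 to -3.37). Its neighbour Grb10, an adaptor that damps insulin and IGF signalling, stood at 7.17 log2 CPM at day 0 and 7.27 in Nons, so the difference of 0.10 was small beside that of Ddc. Impact, a regulator of the GCN2 stress kinase, was below day 0 by less than 2-fold, at 8.06 log2 CPM at day 0 and 7.30, 7.57 and 7.58 at day 6, a difference of -0.76 (-0.81 to -0.71) in Nons.

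The remaining members were higher by moderate amounts or near their day 0 level. In Nons, Cdkn1c, the cyclin-dependent kinase inhibitor p57, was 2.41 higher (2.02 to 2.82) and Phlda2, which restrains placental growth, 1.44 higher (0.96 to 1.95). Peg3, a large zinc-finger gene, was 2.20 higher and Mest, of the hydrolase fold, 1.37 higher. Gnas, which encodes the stimulatory G protein subunit, was 2.15 higher, but an antisense row, Gm20721, carried 96.7% to 97.1% as many reads in each library, so the 2 strands may not have been separated. Ascl2, a trophoblast transcription factor, was 0.51 higher, while Zdbf2, a zinc-finger gene, at 0.01 and Zrsr1, a splicing factor gene within Commd1, at 0.05 were within 2-fold. Zim1, Usp29, Airn, Kcnq1, Slc22a18 and Rasgrf1 were under the filter. Of these, the potassium channel gene Kcnq1 had 0, 2, 1 and 0 reads in the 4 libraries and the Ras exchange factor gene Rasgrf1 had 0, 7, 3 and 1, so neither gives a fold. Zim1, a zinc-finger gene, had 8, 54, 59 and 21 reads, the peptidase gene Usp29 had 37, 23, 33 and 14, and the transporter gene Slc22a18 had 11, 17, 16 and 17.

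With the Smarca4 hairpins, most imprinted genes stayed within 2-fold of Nons. With Smarca4.4, 1 of the 25 members was at least 2-fold higher, against 0.882% of all genes compared, and 0 were at least 2-fold lower, against 0.309%. With Smarca4.6, 2 were at least 2-fold higher, against 1.03%, and 0 lower, against 0.799%. Peg12 alone was at least 2-fold higher with both, against 0.392% of all genes compared, and 0 members were lower with both, against 0.121%. The median difference over the 25 was 0.18 with Smarca4.4 and 0.10 with Smarca4.6, beside 0.04 and 0.06 over all genes compared. The 2 comparisons share the Nons library, so a low or high value there enters both. In direction, 14 of 25 members were higher with both hairpins (56%), 5 were lower with both and 6 were split, beside 45.4% and 30.1% of all genes compared that were higher and lower with both. Within 0.5 of Nons with both were 11 members (44%), beside 82.1% of all genes compared. At a limit of 1.5-fold, Peg12, Magel2 and Cdkn1c were higher with both, 3 of 25 against 2.31% of all genes compared.

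**Figure D3:**
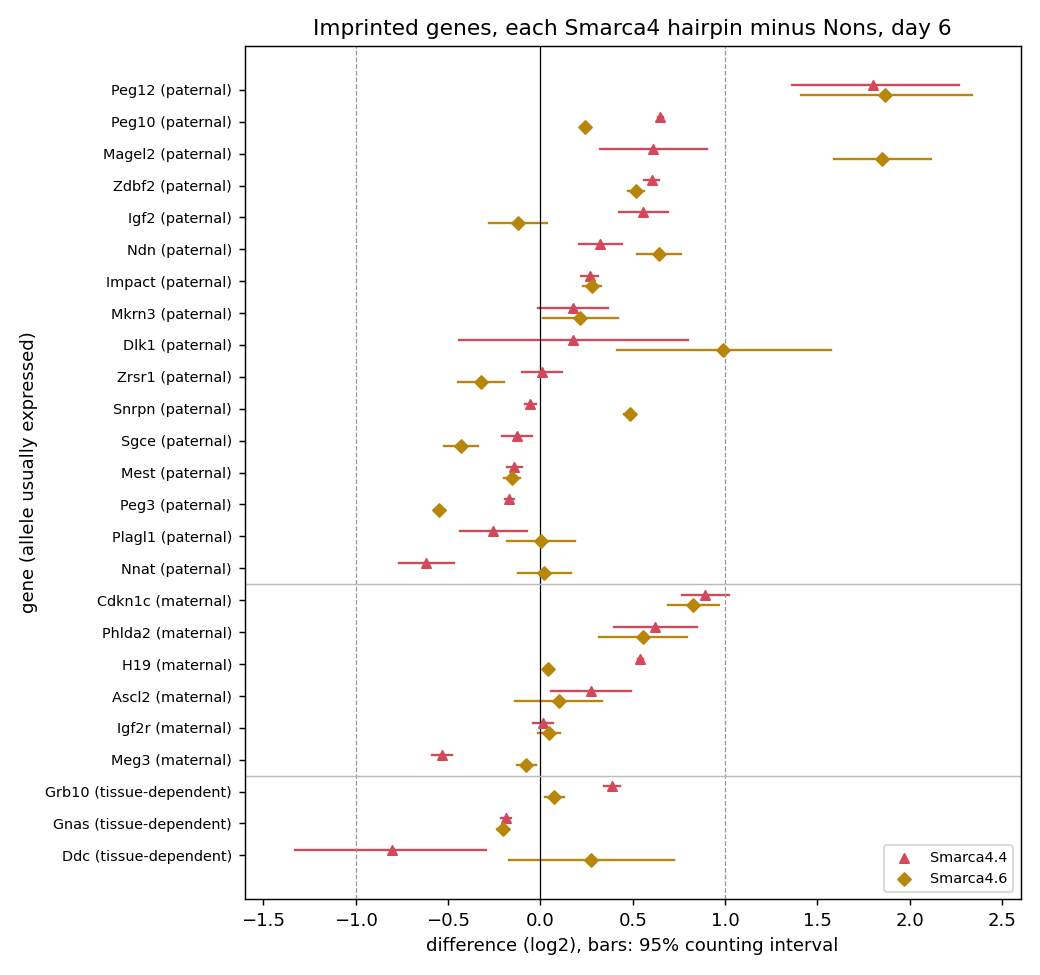
Difference from Nons on the log2 scale with Smarca4.4 and with Smarca4.6 (x axis) for each of the 25 imprinted genes compared (y axis), with bars for the exact 95% counting interval of the libraries and dashed lines at 2-fold. Peg12 is apart from the rest with both hairpins, at 1.80 and 1.87, and Magel2 with Smarca4.6, at 1.85.

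Peg12 was the member with the largest difference. From 0.24 log2 CPM in Nons it stood at 2.04 with Smarca4.4 and 2.10 with Smarca4.6, differences of 1.80 (1.36 to 2.26) and 1.87 (1.41 to 2.34), or 3.49-fold and 3.65-fold. Both levels lay between Nons and day 0, at 23.3% and 24.3% of the day 0 level against 6.67% in Nons. Its row covers chr7:62461871-62464510 on the minus strand. The Nons value rests on 54 reads. Magel2, 87.5 kb away, stood at 1.82 log2 CPM in Nons, 2.44 with Smarca4.4 and 3.67 with Smarca4.6. The differences were 0.61 (0.32 to 0.90) and 1.85 (1.59 to 2.12), the second being 3.61-fold. Unlike Peg12, Magel2 moved away from its day 0 level of 1 read.

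The other genes of the Snrpn cluster had smaller differences. Ndn, 116 kb from Peg12 and like Magel2 of the MAGE family, had 1068 reads in Nons, 1377 with Smarca4.4 and 1329 with Smarca4.6, differences of 0.32 (0.21 to 0.44) and 0.64 (0.52 to 0.76). Mkrn3, a ubiquitin ligase gene that restrains the onset of puberty, lies between Magel2 and Peg12, 44.4 kb from the latter, and differed by 0.18 (-0.01 to 0.37) and 0.22 (0.01 to 0.42). Snrpn, 2324 kb away, differed by -0.05 and 0.48. All 5 listed genes of the cluster were above Nons with Smarca4.6, beside 58.9% of all genes compared. With Smarca4.4, 4 of 5 were, the exception being Snrpn, beside 56.5%. Genes of the region that are not on the list were not uniformly higher. Gm7367, which starts near Snrpn, differed by -0.35 and -0.47 with Smarca4.4 and Smarca4.6. Snurf, which overlaps Snrpn on the same strand, differed by -0.07 and 0.46.

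**Figure D4:**
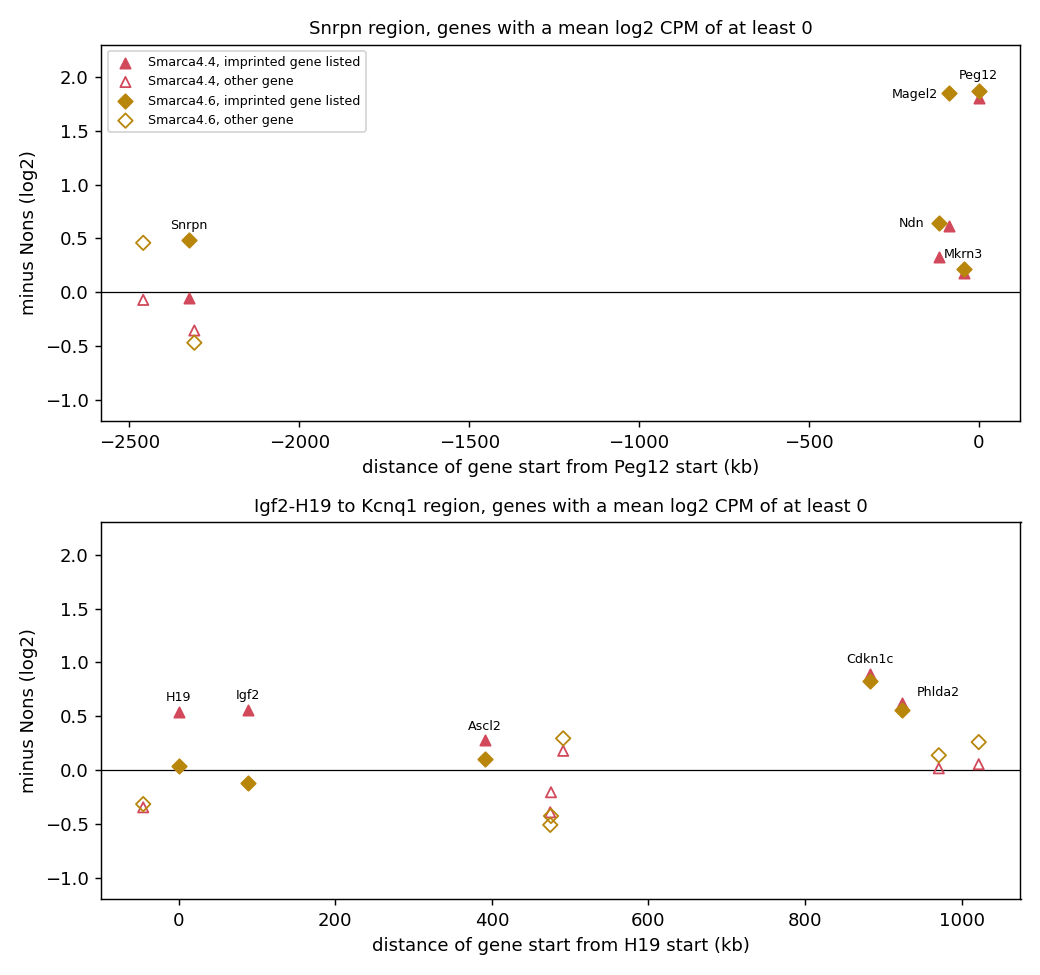
Difference from Nons on the log2 scale (y axis) by distance of the gene start in kb (x axis) from Peg12 (upper panel) and from H19 (lower panel), with filled points for the imprinted genes listed and open points for other genes compared in the region. In the upper panel Peg12 and, with Smarca4.6, Magel2 are highest; in the lower panel Cdkn1c and Phlda2 lie above the open points around them.

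In the Kcnq1 cluster, the growth restrainers Cdkn1c and Phlda2 were higher with both hairpins by less than 2-fold. Cdkn1c stood at 4.05 log2 CPM in Nons, 4.94 with Smarca4.4 and 4.88 with Smarca4.6, differences of 0.89 (0.77 to 1.02) and 0.83 (0.69 to 0.97). Phlda2 stood at 2.58, 3.20 and 3.13, differences of 0.62 (0.40 to 0.85) and 0.56 (0.32 to 0.79). Both genes were further from day 0 with the hairpins than in Nons. Ascl2, at the other end of the cluster, differed by 0.27 and 0.10. Among genes nearby that are not on the list, Nap1l4, a histone chaperone gene, differed by 0.02 and 0.14. Tssc4 differed by 0.18 and 0.29 and the tetraspanin gene Cd81 by -0.39 and -0.51. Whether these genes are imprinted was not considered. Of 6 trophoblast genes compared, Ascl2 among them, 4 were above Nons with each hairpin, beside 56.5% and 58.9% of all genes compared. Hand1 differed by 1.59 and 0.77, Plac1 by 0.76 and 0.69 and Tfap2c by 0.78 and 0.47. Gata3 differed by -0.17 and -0.84 and Eomes by -0.20 and -0.31.

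Zdbf2 was the remaining member above Nons by more than 0.5 with both hairpins, at 7.46 log2 CPM in Nons, 8.06 with Smarca4.4 and 7.98 with Smarca4.6. The differences were 0.60 (0.56 to 0.64) and 0.52 (0.47 to 0.56), and both levels were above day 0 as well, at 153% and 144% of it. Impact differed by 0.27 and 0.28, and remained below its day 0 level with both.

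For several members the difference from Nons was unlike in size or sign with the 2 hairpins. H19 was 0.54 above Nons with Smarca4.4 (0.53 to 0.56) and 0.04 with Smarca4.6 (0.03 to 0.06), and Igf2 was 0.56 above (0.43 to 0.69) and 0.12 below (-0.28 to 0.04). Peg10 was 0.65 above with Smarca4.4 (0.64 to 0.66) and 0.24 above with Smarca4.6, and Grb10 0.39 and 0.08 above. Meg3 and Nnat were lower with Smarca4.4, at 69.2% and 65.2% of Nons, and near Nons with Smarca4.6, at 94.95% and 102%. Ddc differed by -0.80 (-1.33 to -0.29) and 0.28 (-0.17 to 0.72). Dlk1 differed by 0.17 (-0.44 to 0.80) and 0.99 (0.42 to 1.57), on 43 to 68 reads. The difference between hairpins was not tested, since each is 1 library. Smarca4 was lower with Smarca4.4 than with Smarca4.6.

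Members below Nons with both hairpins were few and their differences small. Peg3 differed by -0.17 (-0.19 to -0.14) and -0.55 (-0.58 to -0.52), Sgce by -0.13 and -0.43, Mest by -0.14 and -0.15, Gnas by -0.18 and -0.20 and Meg3 by -0.53 and -0.07. Peg3 and Sgce were lower by more with Smarca4.6, and so was Zrsr1, at 0.01 and -0.32. Igf2r, at 0.02 and 0.05, and Plagl1, at -0.25 and 0.00, were close to Nons. Of 7 mesenchyme and smooth muscle markers compared, 4 were below Nons with Smarca4.4 and 6 with Smarca4.6, with medians of -0.34 and -0.25. Over all 13264 genes compared, 5774 were below Nons with Smarca4.4 and 5452 with Smarca4.6. Acta2 was at -1.03 and -1.83 and Tagln at -0.42 and -0.66, while Twist1 was at 0.04 and 0.14 and Col1a1 at 0.11 and -0.22. Their part in these values was not tested.

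A list of 18 genes that keep or read imprints, or write or remove DNA methylation, was found whole, and all 18 passed the filter. Zfp42 on it is also 1 of the 7 pluripotency genes above. At day 6 in Nons, 2 were at least 2-fold higher, both of them de novo methylation factors, Dnmt3b by 2.66 and Dnmt3l by 1.88. Lower by at least 2-fold were 8, and the median of the list was -0.94. Over all genes compared, 19.6% were higher and 12.3% lower. Zfp57 was lower by 2.38 on the log2 scale, from 7.14 to 4.75 log2 CPM, and its partner Trim28 differed by -1.16. The maintenance factors Dnmt1 and Uhrf1 differed by -1.17 and -1.58, the demethylating enzymes Tet1 and Tet2 by -1.69 and -3.73, and the naive-state genes Dppa3 and Zfp42 by -2.66 and -4.74. With the hairpins 0 of the 18 were past 2-fold in either direction, where 0.309% to 1.03% of all genes compared were in each. The medians were 0.09 and 0.16, and the largest differences were 0.84 and 0.73 for Tet3 and, with Smarca4.6, -0.94 for Dnmt3l.

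Genes taken as lying in or beside the same clusters, but not on the list, gave a rough comparison by place. They were taken whether imprinted or not, so they do not stand for genes free of imprinting. Of 42 such genes 39 were found and 25 passed the filter. In Nons at day 6, 8 were at least 2-fold higher and 4 lower, beside 19.6% and 12.3% of all genes compared. The median was -0.05. Ctsl, whose place beside a cluster could not be checked here, was 1 of the 4 lower, at -1.01. With the hairpins 0 of the 25 were past 2-fold, beside 0.309% to 1.03% in each direction, and the medians were 0.01 and 0.00. Under the filter, Asb4, an ankyrin-repeat gene beside Peg10, had 74 reads at day 0, 5 in Nons, 31 with Smarca4.4 and 22 with Smarca4.6. Like Peg12 it was highest at day 0 and lowest in Nons, on fewer reads. Slc22a3, a transporter gene beside Igf2r, had 0, 10, 27 and 20 reads. Cobl, beside Grb10, had 1335, 158, 277 and 223 reads and differed from Nons by 0.77 and 0.82. Dio3, the deiodinase gene at the end of the Dlk1-Meg3 cluster, had 58, 1027, 534 and 500 reads and differed by -0.99 and -0.71.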

How the data were processed

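RNA-seq of 4 libraries was examined. Per the study's methods, libraries were made with a TruSeq RNA kit and sequenced as paired ends. The authors aligned reads to mm10 with HISAT2 (tophat is named as well), with strain differences masked, counted them per gene in SeqMonk and deposited log2 CPM, 1 column per library. The strand setting is not given in the sources used here.

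Because the deposited values were log2, no count test was used. Back-transformed values were whole multiples of 1 read, with 0 reads written as 0.9 of a read. Within 0.02 of a read, every nonzero value up to 1000 reads was whole, as were 99.73% to 99.95% of all nonzero values. Differences were taken between deposited values, without a pseudocount, for genes with a mean of at least 0 log2 CPM, and a fold was counted only where 1 of the libraries had at least 3 reads. Intervals are exact (Clopper-Pearson) and, like floors, leave out every error but that of counting, as PCR copies are not separate molecules. Exon lengths came from GENCODE M21 on GRCm38 and promoter windows from RefSeq, which held 28 of the 34 genes. Coordinates of genes are those of the deposited table.

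Members and lists were chosen with earlier results of these data known. Every member found is named. Members at least 2-fold different with a hairpin, or with the 5 largest differences in each direction from day 0 to Nons among members found with at least 3 reads in both libraries, have their values in every library. Alternatives were centring on the autosomal median, a pseudocount (1 CPM), a stricter filter (a mean of at least 3 log2 CPM), no filter, other fold thresholds, leaving out overlapping or tissue-dependent members and, added after seeing the data, the Smarca4.4 or Smarca4.6 library in place of Nons against day 0. The scripts were tested on simulated data. Computation used matplotlib 3.10.9, pandas 2.3.3, scipy 1.17.1 and numpy 2.4.6 under Python 3.11.15.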

Additional observations from a re-analysis of the deposited data

How the results depend on the processing

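No paired analysis was possible because there was a single library in every group, numbered 3 throughout. Of 60 alternative values of the counts and medians, 52 stayed near the reported value. For counts that meant within 1.5 times of it, and for medians within a 95% interval taken from the ranked values of the members. The other 8 were counts. Medians kept their sign but moved under the stricter filter, to 2.15 at day 6, 0.016 with Smarca4.4 and 0.042 with Smarca4.6, and without overlapping members the Smarca4.6 median was 0.23. The stricter filter left 19 members, of which 2 were at least 2-fold lower at day 6 (9.7% of all genes then compared) and 0 were at least 2-fold higher with Smarca4.4, with Smarca4.6 or with both, because Peg12 and Magel2 have means under it. With no filter, which added 6 members with few reads, 1 was at least 2-fold lower with Smarca4.4 (Rasgrf1), 2 with Smarca4.6 (Rasgrf1 and Zim1) and 1 with both, beside 3.03%, 3.87% and 1.48% of all genes. Kcnq1, at 2 reads or fewer throughout, was not counted. At 1.5-fold, 3 members were higher with both hairpins. Against day 0, the Smarca4.4 library gave 13 members higher and 4 lower, beside 18.9% and 11% of all genes compared, and the Smarca4.6 library 14 and 4, beside 19.3% and 11.3%. With a pseudocount of 1 CPM, Peg12 differed by 1.23 and 1.28 with the hairpins, and at day 6 the differences of Magel2, Nnat, Igf2 and Peg12 were 2.11, 3.52, 3.04 and -3.10. Centring shifted differences by 0.05, 0.03 and 0.06 and turned the sign of values near 0: H19 with Smarca4.6 (-0.0196), Igf2r with Smarca4.4 (-0.017) and Smarca4.6 (-0.015), Plagl1 (-0.057) and Nnat (-0.039) with Smarca4.6, Zrsr1 with Smarca4.4 (-0.023), and at day 6 Dlk1 (-0.0095), Zdbf2 (-0.041) and Zrsr1 (-0.0014). With the pseudocount, Kcnq1 at day 6 turned to 0.062, on 0 and 2 reads. Depth limits Kcnq1, Rasgrf1 and Magel2 at day 0 most.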
